A study of Homo sapiens with 12 samples.

Results

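Activator protein 1 (AP-1) is a group of transcription factors that bind DNA as pairs of basic leucine zipper (bZIP) proteins. The 10 AP-1 genes examined were JUN, JUNB and JUND of the JUN family, FOS, FOSB, FOSL1 and FOSL2 of the FOS family, MAFF of the small MAF proteins, and BATF and BATF3 of the BATF family. They were chosen by gene symbol, with earlier results of these data known, and all 10 were present among the 59251 genes of the count table. All 10 also passed the filter on low counts, which left 13318 genes for testing.

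RNA-Seq was performed on HL60, a human acute myeloid leukemia cell line that is used as a non-APL model of myeloid differentiation. The 12 libraries formed 4 groups of 3, which were non-treated cells, cells given 1 µM all-trans retinoic acid (ATRA), cells given 1 µM palbociclib (an inhibitor of the cyclin-dependent kinases CDK4 and CDK6, written CDK4/6i), and cells given both drugs (CDK4/6i+ATRA). All treatments lasted 48 h, so that each drug was measured at a single dose and time. The labels call the 3 libraries of a group biological replicates. All come from the same cell line, so p-values measure the spread between these libraries. The comparisons asked how AP-1 genes respond to a differentiation signal, to a cell cycle block, and to both at once.

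JUN proteins can pair with each other or with FOS proteins, whereas FOS proteins need a JUN partner to bind DNA. BATF proteins and small MAF proteins have a leucine zipper but no activation domain of their own, and act through the partner they join. FOS, FOSB, JUN, JUNB and MAFF are immediate early genes, whose mRNA rises quickly and briefly when mitogens or stress activate MAP kinases such as ERK, and whose messengers are short-lived. In the myeloid lineage, JUN and JUNB accompany the differentiation of monocytes and macrophages.

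The promoters are shown first, because several members carry short elements of the kind that immediate early genes use close to their start sites. RefSeq windows of 250 bases before to 50 bases after the start site (GRCh38.p14) were matched for 8 of the 10 genes. FOSL1 and BATF3 were not matched. The 90 bases just upstream of the start site are printed 5′ to 3′ for 7 genes, with capitals for the cyclic AMP response element (CRE, TGACGTCA), its core TGACGT (or ACGTCA on the other strand), the JUN-type element TGACATCA and the TATA box TATAAA.
FOS, chr14:75278738-75278827, plus strand: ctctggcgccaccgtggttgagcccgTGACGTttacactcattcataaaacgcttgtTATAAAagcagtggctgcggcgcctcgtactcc
FOSB, chr19:45467906-45467995, plus strand: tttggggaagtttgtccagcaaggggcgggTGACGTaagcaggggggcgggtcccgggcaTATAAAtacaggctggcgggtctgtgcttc
FOSL2, chr2:28392768-28392857, plus strand: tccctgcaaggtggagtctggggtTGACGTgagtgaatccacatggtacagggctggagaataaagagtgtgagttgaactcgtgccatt
MAFF, chr22:38201904-38201993, plus strand: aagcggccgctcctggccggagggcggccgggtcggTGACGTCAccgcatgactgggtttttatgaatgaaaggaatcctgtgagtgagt
JUN, chr1:58784048-58784137, minus strand: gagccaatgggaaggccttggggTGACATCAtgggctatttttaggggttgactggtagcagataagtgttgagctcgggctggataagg
JUNB, chr19:12791396-12791485, plus strand: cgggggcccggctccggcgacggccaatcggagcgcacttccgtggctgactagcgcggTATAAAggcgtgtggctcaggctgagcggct
JUND, chr19:18281623-18281712, minus strand: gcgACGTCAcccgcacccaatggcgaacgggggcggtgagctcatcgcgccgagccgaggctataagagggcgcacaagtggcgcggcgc

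The CRE core began 64 bases upstream of the start site in FOS, 66 in FOSL2, 60 in FOSB and 54 in MAFF, where it was part of a full CRE. JUND carried the core with its first base 87 bases upstream on the other strand, and a full CRE 200 bases upstream, outside the printed stretch. The JUN-type element lay 67 bases upstream in JUN. The TATA box lay 33 bases upstream in FOS, 31 in JUNB and 30 in FOSB. MAFF had 2 windows. The MAFF window not printed and the BATF window held no match to any element searched. Among 35116 promoter windows of the same length searched on both strands, 7.98% held the core TGACGT, 1.85% the full CRE (which contains the core), 2.61% TGACATCA and 11.5% TATAAA. The classical AP-1 element TGACTCA, present in 4.95% of the windows, occurred in the FOSL2 window alone among the matched members, starting 4 bases after the start site. Neither the CArG box bound by serum response factor (1.29% of windows) nor the retinoid receptor element AGGTCA (13.8%) was found in a member's window. Sequence outside the windows was not searched, so a missing match does not show that a gene lacks the element farther from its start site. The matches given are matches of letters and not measured binding sites.

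The libraries held 12230923 to 18679544 counts, with the lowest totals in CDK4/6i+ATRA. Levels are given as CPM, the count of a gene scaled to a common library size after TMM normalization, whose factors were 0.840 to 0.893 in CDK4/6i+ATRA and 1.03 to 1.07 in the other libraries. Where the library total alone was used for scaling, the median log2 change of all genes with both drugs moved to -0.25 and that of the interaction of the drugs to -0.34, and the share of called genes that were higher moved from 50.2% to 40.5% and from 47.5% to 18.5%. That share moved from 49.8% to 36.7% for both drugs against CDK4/6i and from 53.0% to 31.6% for both against ATRA. Of the 8 myeloid leukemia markers, MPO fell from 6517 ± 168 CPM (SD, n = 3) in non-treated cells to 28.0 ± 5.15 CPM in CDK4/6i+ATRA, MYB fell from 341 ± 5.72 to 11.2 ± 1.42 CPM, and SPI1 rose from 302 ± 3.03 to 855 ± 15.5 CPM. ELANE, PRTN3 and AZU1 were listed at 0 in every library. Whether a gene listed at 0 gave no reads or its reads were not counted was not tested, here or in the lists below. Of 11 markers of other cell types, CD3D had at most 1 count in any library, MS4A1, HBB, HBA1, EPCAM, COL1A2 and ALB had 0, and the summed level of the list was 25.7 to 27.5 CPM without treatment, 33.0 to 33.5 with ATRA, 32.7 to 34.2 with CDK4/6i and 15.1 to 18.3 with both, most of it PECAM1 (24.2 ± 0.901 CPM in non-treated cells and 15.0 ± 1.44 CPM with both). CD3E, a T cell marker like CD3D, was detected, with 33 to 36 counts a library without treatment, 36 to 47 with ATRA, 48 to 59 with CDK4/6i and 6 to 11 with both. TGM2, a retinoid target, was at 0.0200 ± 0.0347 CPM in non-treated cells and 2024 ± 134 CPM with ATRA, CD38 at 0.179 ± 0.263 and 399 ± 8.08 CPM, and ITGAM at 9.25 ± 0.947 and 274 ± 2.69 CPM. The other retinoid targets examined stayed low, with RARB at 0.345 ± 0.205 CPM without treatment and 0.335 ± 0.141 with ATRA, and CYP26A1 at 0 to 1 count in the libraries of both groups. The part of these marker changes in the results below was not tested. In bulk RNA a change in the number of cells that express a gene and a change in RNA per cell cannot be told apart.

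Relative to non-treated cells, CDK4/6i+ATRA raised 9 of the 10 AP-1 genes and lowered none, and 8 of them rose by at least 2-fold. Their median log2 change was 2.44, beside 0.02 for all tested genes. Under edgeR's quasi-likelihood test at an adjusted p of 0.05 (Benjamini-Hochberg over all genes, used for every call below), 81.7% of all genes were called in this comparison, 41% were higher, 40.7% were lower, and 22.3% were higher by at least 2-fold. ATRA alone raised 8 and lowered 1, with a median of 0.99, against 67.6% of all genes called, 32.1% higher and 35.5% lower, and raised 5 by at least 2-fold, as it did 12.9% of all genes. CDK4/6i alone raised 5 and lowered 3, with a median of 0.14, against 56.2% of all genes called, 28.3% higher and 27.9% lower. It raised 3 members by at least 2-fold, as it did 5.56% of all genes. These comparisons share the non-treated libraries.

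**Figure D1:**
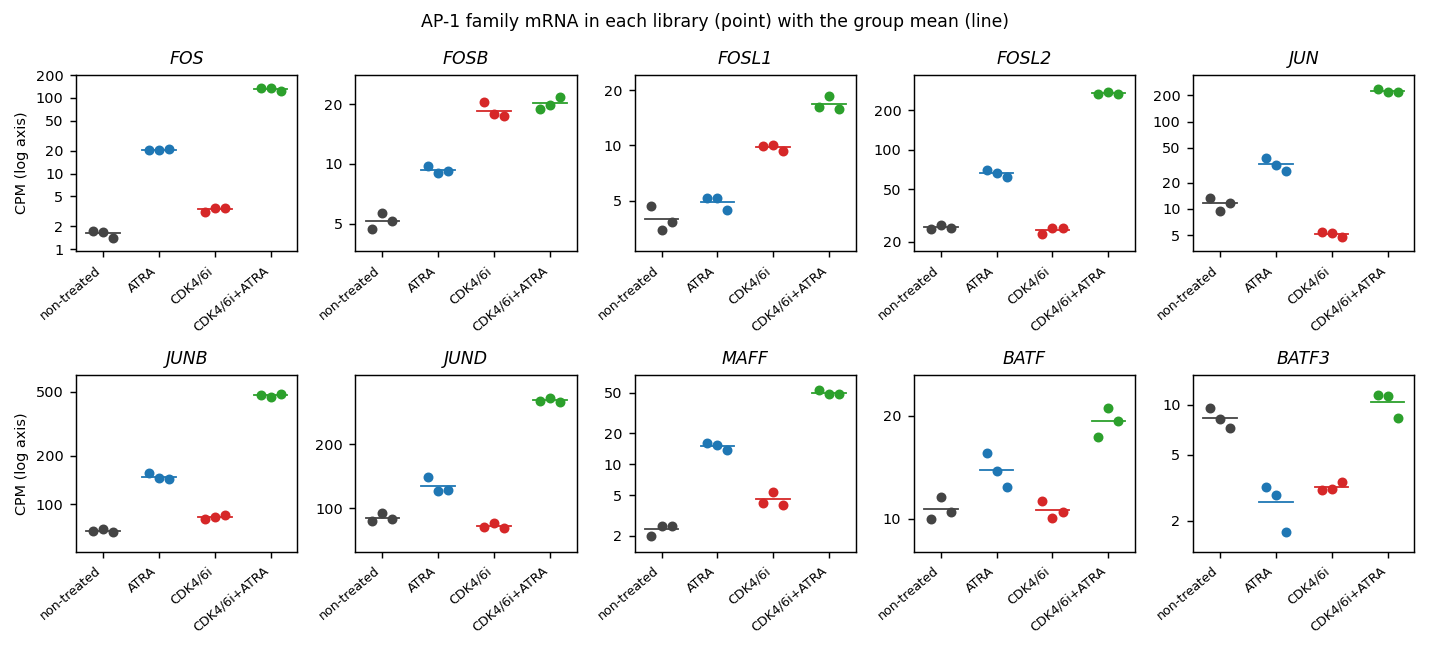
Level of each AP-1 gene in each library (points, CPM on a log axis whose range differs between panels) with the group mean (line), for 3 libraries in each of the 4 groups. In JUN, JUNB, JUND, FOS, FOSL1, FOSL2, MAFF and BATF the CDK4/6i+ATRA libraries lie above all others, BATF3 is low with either drug alone, and in FOSB the libraries with CDK4/6i and with both drugs overlap.

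JUN, the founding member of AP-1 and itself a target of JUN N-terminal kinases, went down with CDK4/6i and up with CDK4/6i+ATRA. JUN (chr1:58780791-58784047, minus strand, a single exon) was at 13.3, 9.53 and 11.8 CPM in the non-treated libraries, 38.6, 31.5 and 27.2 with ATRA, 5.45, 5.26 and 4.74 with CDK4/6i, and 238, 220 and 218 with both. No group overlapped another. CDK4/6i lowered JUN by a log2 change of -1.17 ± 0.13 (SE, adjusted p = 1.88e-10 by edgeR), but in cells that also received ATRA it raised JUN by 2.80 ± 0.07 (adjusted p = 5.00e-37). ATRA raised JUN 2.79-fold in cells without CDK4/6i and 43.7-fold in cells with it. The fold change with both drugs was 19.5, where the product of the single-drug folds was 1.24.

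JUNB, which is induced by many cytokines, had the highest mean level per kilobase of the 10 genes in each treated group, although its libraries overlapped those of JUND with CDK4/6i. JUNB (chr19:12791486-12793315, plus strand, a single exon) was at 67.6, 69.7 and 66.9 CPM without treatment, 156, 146 and 143 with ATRA, 80.3, 83.6 and 85.6 with CDK4/6i, and 482, 467 and 482 with both. The 4 groups were again separate, with a spread of at most 4.45% of the mean within a group. Its log2 changes were 1.12 ± 0.04 with ATRA, 0.29 ± 0.05 with CDK4/6i and 2.81 ± 0.04 with both (adjusted p at most 2.90e-07 by edgeR). JUNB shares 27 exon bases with HOOK2 on the opposite strand, which had 973 counts in all libraries against 31753 for JUNB.

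JUND, the JUN protein that is made most constantly in resting cells, moved the least of the family. JUND (chr19:18279694-18281622, minus strand, a single exon) was at 87.3, 95.6 and 89.0 CPM without treatment, 140, 120 and 122 with ATRA, 82.2, 85.5 and 80.6 with CDK4/6i, and 319, 329 and 318 with both. The libraries with both drugs were well above the rest, while those with CDK4/6i lay just below the non-treated ones. The rise with both drugs was 3.55-fold (log2 change 1.83 ± 0.05, adjusted p = 8.60e-37 by edgeR). The fall with CDK4/6i was -0.13 ± 0.05 on the log2 scale (adjusted p = 0.0201). It lost its call without non-treated replicate 2 (-0.09, adjusted p = 0.153) or CDK4/6i replicate 3 (-0.11, adjusted p = 0.0907).

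FOS, the prototype of an immediate early gene, showed the largest rise of the 10 genes. FOS (chr14:75278828-75282230, plus strand, 4 exons) was at 1.74, 1.69 and 1.41 CPM in non-treated cells, from 25 to 29 counts a library. It was at 20.3, 20.2 and 20.8 CPM with ATRA, 3.06, 3.48 and 3.51 with CDK4/6i, and 135, 135 and 125 with both. The groups did not overlap, and the order from low to high was non-treated, CDK4/6i, ATRA and CDK4/6i+ATRA. The rise was 12.7-fold with ATRA (log2 change 3.66 ± 0.12, adjusted p = 1.63e-30), 2.07-fold with CDK4/6i (1.05 ± 0.18, adjusted p = 2.08e-06) and 81.2-fold with both (6.34 ± 0.10, adjusted p = 4.31e-46, all by edgeR).

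FOSL2, which encodes FRA-2, rose with ATRA and was not called with CDK4/6i alone. FOSL2 (chr2:28392858-28417317, plus strand) was at 25.1, 27.0 and 25.3 CPM without treatment, 70.3, 66.7 and 62.3 with ATRA, 23.0, 25.4 and 25.6 with CDK4/6i, and 267, 275 and 264 with both. The CDK4/6i libraries overlapped the non-treated ones, and the difference had a 95% interval of -0.20 to 0.06 on the log2 scale (adjusted p = 0.393 by edgeR). In the presence of ATRA, CDK4/6i raised FOSL2 4.05-fold (log2 change 2.02 ± 0.05, adjusted p = 4.19e-38).

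FOSB and FOSL1 (which encodes FRA-1) responded to CDK4/6i more than to ATRA. FOSB (chr19:45467996-45475179, plus strand) was at 4.69, 5.64 and 5.12 CPM without treatment, 9.80, 8.98 and 9.17 with ATRA, 20.4, 17.8 and 17.5 with CDK4/6i, and 19.0, 19.8 and 21.8 with both. The last 2 groups overlapped, and adding ATRA to CDK4/6i changed FOSB by 0.12 on the log2 scale, with a 95% interval of -0.07 to 0.31 (adjusted p = 0.257 by edgeR). The rise against non-treated cells was 3.62-fold with CDK4/6i (log2 change 1.85 ± 0.11, adjusted p = 1.03e-19) and 1.81-fold with ATRA (0.85 ± 0.13, adjusted p = 5.14e-08). FOSL1 (chr11:65892049-65900545, minus strand) was at 4.69, 3.45 and 3.83 CPM without treatment, 5.18, 5.19 and 4.42 with ATRA, 9.91, 10.1 and 9.36 with CDK4/6i, and 16.2, 18.6 and 15.9 with both. Only the ATRA and non-treated libraries overlapped, where the log2 change was 0.30 ± 0.16 (adjusted p = 0.0858), and this became a call without non-treated replicate 1 (0.43, adjusted p = 0.0310). CDK4/6i raised FOSL1 2.45-fold and both drugs raised it 4.23-fold (adjusted p at most 2.60e-11).

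MAFF, a small MAF protein that pairs with NFE2-related and BACH factors and with FOS, rose in the same order as FOS. MAFF (chr22:38201994-38216511, plus strand) was at 1.98, 2.51 and 2.48 CPM without treatment, 16.0, 15.4 and 13.8 with ATRA, 4.20, 5.38 and 4.04 with CDK4/6i, and 52.6, 48.4 and 48.8 with both. The groups did not overlap, and the rise was 6.45-fold with ATRA, 1.94-fold with CDK4/6i and 21.4-fold with both (log2 change 4.42 ± 0.12, adjusted p = 2.67e-35 by edgeR). MAFF shares 117 exon bases with TMEM184B on the opposite strand, which had 7457 counts in all against 2835 for MAFF. TMEM184B changed by 0.63 on the log2 scale with both drugs, and how far its reads entered the count of MAFF was not tested.

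BATF, which restrains or redirects AP-1 in lymphoid and myeloid cells, changed the least among the genes that were called with both drugs. BATF (chr14:75522469-75546992, plus strand) was at 9.98, 11.5 and 10.5 CPM without treatment, 15.6, 13.8 and 12.4 with ATRA, 11.3, 10.0 and 10.5 with CDK4/6i, and 17.3, 21.1 and 19.2 with both. The libraries with CDK4/6i lay among the non-treated ones, with a log2 difference of -0.01 (95% interval -0.23 to 0.22, adjusted p = 0.969 by edgeR). The log2 change was 0.38 ± 0.11 with ATRA (adjusted p = 0.00154) and 0.85 ± 0.11 with both (adjusted p = 7.36e-10). The rise of CDK4/6i+ATRA over ATRA was 0.47 ± 0.10 on the log2 scale (adjusted p = 7.52e-05), and 0.16 (adjusted p = 0.156) where libraries were scaled by their totals alone.

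BATF3, best known for its role in dendritic cells, fell with either drug and stood near its starting level with both. BATF3 (chr1:212686417-212699840, minus strand) was at 9.56, 8.15 and 7.21 CPM without treatment, 3.20, 2.86 and 1.71 with ATRA, 3.06, 3.12 and 3.39 with CDK4/6i, and 11.5, 11.2 and 8.35 with both. Each single-drug group lay below all libraries of the non-treated cells and of CDK4/6i+ATRA, and the latter groups overlapped each other. BATF3 changed by -1.69 ± 0.18 with ATRA (adjusted p = 1.28e-11) and by -1.38 ± 0.17 with CDK4/6i (adjusted p = 1.84e-09, both by edgeR) on the log2 scale. With both drugs the change was 0.31 ± 0.15 (adjusted p = 0.0576), which became a call when non-treated replicate 1 (0.42, adjusted p = 0.0253) or CDK4/6i+ATRA replicate 3 (0.45, adjusted p = 0.0110) was left out.

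The effect of each drug was next compared in the presence and absence of the other. The interaction is the log2 change with both drugs minus the sum of the log2 changes with each drug, so that a value above 0 means a higher level than the product of the single-drug folds. It passed the test in all 10 genes, above 0 in 9 and below 0 in FOSB, whereas 51.4% of all genes passed, 24.5% above 0 and 27% below. It was at least 1 on the log2 scale in 6 of the 10 and, with a call, in 4.7% of all genes. The median over the 10 genes was 1.43, beside -0.02 over all genes.

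The largest values were those of JUN at 3.97 ± 0.15 (SE) and BATF3 at 3.38 ± 0.25, the members that CDK4/6i lowered most when given alone. FOSL2 had 2.09 ± 0.08, FOS 1.63 ± 0.21, JUND 1.47 ± 0.07 and JUNB 1.40 ± 0.06 (adjusted p from 3.48e-27 to 4.57e-09 by edgeR). FOS with both drugs thus stood 3.10 times above the product of its single-drug folds, which was 26.2. MAFF (0.77 ± 0.20, adjusted p = 0.000929), FOSL1 (0.49 ± 0.20, adjusted p = 0.0339) and BATF (0.48 ± 0.15, adjusted p = 0.00682) departed less. Those of FOSL1 and BATF were at 0.17 and 0.16 (adjusted p = 0.481 and 0.387) and that of MAFF at 0.46 (adjusted p = 0.0556) with scaling by library totals alone, and that of FOSL1 was also lost without non-treated replicate 1, ATRA replicate 3, CDK4/6i replicate 3 or CDK4/6i+ATRA replicate 2 (0.35 to 0.45). FOSB was the exception, at -0.74 ± 0.16 (adjusted p = 0.000100), with a 3.93-fold rise against a product of 6.54.

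**Figure D2:**
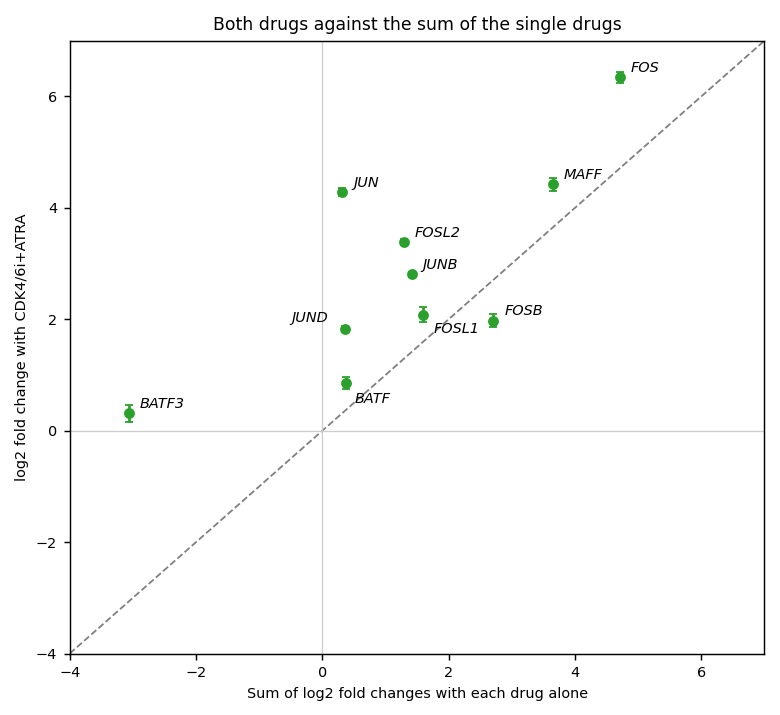
Log2 fold change over non-treated cells with both drugs (vertical axis, bars are SE) and the single-drug log2 fold changes of ATRA and CDK4/6i added together (horizontal axis), 1 point a gene. The dashed line marks equal values, above which lie 9 genes, farthest JUN (4.28 against 0.32) and BATF3 (0.31 against -3.06), and below which lies FOSB (1.97 against 2.71).

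Against the single drugs, CDK4/6i+ATRA was higher in all 10 genes when compared with ATRA, by at least 2-fold in 9 of them, where 69.8% of all genes were called, 36.9% were higher, 32.8% were lower and 10.8% were higher by at least 2-fold. Compared with CDK4/6i it was higher in 9, by at least 2-fold in 7, where 78.6% of all genes were called, 39.1% were higher, 39.5% were lower and 18.6% were higher by at least 2-fold. The exception was FOSB. FOS was 39.2-fold and FOSL2 10.9-fold higher with both drugs than with CDK4/6i, and FOSL1 was 1.73-fold higher.

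The makeup of the 2 families was compared through levels per kilobase, since longer messengers yield more reads. The summed level of JUN, JUNB and JUND was 87.7 ± 2.44 CPM per kilobase (SD, n = 3) without treatment, 157 ± 10.9 with ATRA, 89.9 ± 1.71 with CDK4/6i and 497 ± 4.22 with both. That of FOS, FOSB, FOSL1 and FOSL2 was 8.01 ± 0.244, 24.4 ± 0.749, 15.3 ± 0.265 and 116 ± 3.69 CPM per kilobase in the same order. JUN family messengers were thus more abundant in every group, and the rise with both drugs was 5.66-fold for the JUN family and 14.5-fold for the FOS family.

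In non-treated cells JUND made up 53.5% ± 1.14 (SD, n = 3) of the JUN family, JUNB 42.4% ± 0.380 and JUN 4.06% ± 0.765. With both drugs JUND fell to 33.6% ± 0.888, JUNB stood at 52.5% ± 0.769 and JUN at 13.9% ± 0.566. The share of JUN was 1.76% ± 0.139 with CDK4/6i alone. Within the FOS family, FOSL2 led in non-treated cells with 46.6% ± 2.19 and FOS held 9.57% ± 0.803. FOS held 39.8% ± 1.76 with ATRA and 53.9% ± 1.03 with both drugs. With CDK4/6i alone the leading members were FOSL1 at 34.3% ± 0.782 and FOSB at 32.1% ± 2.43, while with both drugs FOSB held 4.63% ± 0.471. Where counts were not divided by length, FOSL2, the longest messenger, led the FOS family in every group, with 70.6% ± 1.10 without treatment, 65.7% ± 1.12 with ATRA, 43.7% ± 2.61 with CDK4/6i and 61.5% ± 0.434 with both, and FOS held 20.3% ± 1.17 with ATRA and 30.0% ± 0.819 with both.

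Of 35 differences in share between groups, 32 separated the libraries of the groups fully, which with 3 against 3 libraries gives the smallest p that an exact two-sided permutation test allows, 0.1 (0.109 after adjustment over the 35), so that no difference in share could pass 0.05. The other 3 were JUNB with both drugs against CDK4/6i (p = 0.2), JUNB with both drugs against ATRA (p = 0.5) and FOS with CDK4/6i against non-treated cells (p = 0.3), all by the exact permutation test.

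**Figure D3:**
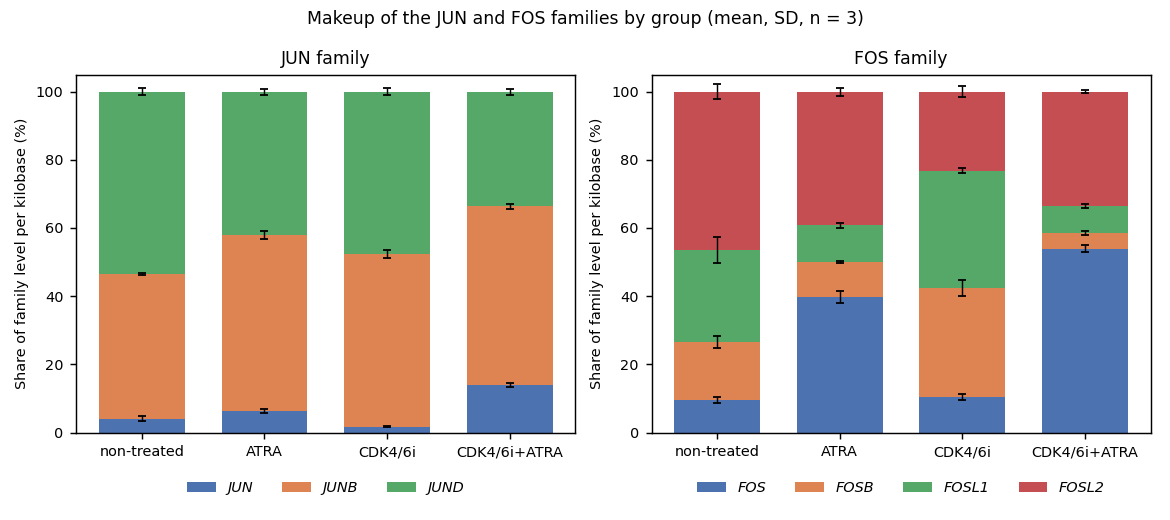
Share of each member in the summed level per kilobase of the JUN family (left) and the FOS family (right) in percent, as the mean of 3 libraries per group with SD bars drawn at the top of each segment. JUN widens from 4.06% in non-treated cells to 13.9% with both drugs and FOS from 9.57% to 53.9%, while CDK4/6i alone gives the widest segments of FOSB and FOSL1.

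Ordered by level per kilobase, the non-treated cells ran from JUND (47.0 ± 2.26 CPM per kilobase) and JUNB (37.2 ± 0.784) through BATF, BATF3, FOSL2, JUN, FOSL1 and FOSB to MAFF (0.893 ± 0.113) and FOS (0.767 ± 0.0859). The libraries of neighbours in this order overlapped for FOSL2 and JUN and for MAFF and FOS. With both drugs the order was JUNB (261 ± 4.88), JUND (167 ± 3.35), JUN (69.3 ± 3.37), FOS (62.4 ± 2.79), FOSL2 (38.9 ± 0.810), BATF, MAFF, FOSL1, BATF3 and FOSB (5.35 ± 0.388), with overlap between BATF and MAFF and between FOSL1 and BATF3. FOS thus moved from the last place to the fourth. With CDK4/6i the last 3 places, MAFF, FOS and JUN, overlapped from neighbour to neighbour, and so did JUNB and JUND at the top and FOSL1 and FOSB in the fourth and the fifth place. With ATRA, neighbours overlapped among JUN, FOS and FOSL2 and among FOSL1, FOSB and BATF3.

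Genes outside the family were ranked by how little their log2 CPM, centred on the gene's mean, differed from that of a member over the 12 libraries (root mean square difference, 9300 genes with a mean of at least 5 CPM). The nearest to JUN were PLCB1, EFNB2 and RGCC (0.26 to 0.40), the nearest to FOS were GPAT3, SGK1 and FCER1G (0.31 to 0.32), and the nearest to FOSL2 were CCDC71L, PHACTR2 and DUSP5 (0.18 to 0.21). For JUNB they were SLC16A3, MOSPD2 and NFKBIE (0.11 to 0.13), for JUND ADAM17, RYBP and INSIG1 (0.10), and for MAFF LFNG, IQSEC1 and SH2D2A (0.15 to 0.19). FOSB was nearest to GBGT1, LACTB and ARSD (0.16 to 0.20), FOSL1 to SPATA2L, TRNN and IFI30 (0.15 to 0.18), and BATF to AKAP8L, NUTM2B-AS1 and PIAS3 (0.08 to 0.09). No gene came as near to BATF3, where MFSD2A, LOC102723996 and ZCCHC2 differed by 0.46 to 0.49. These distances are not on a common footing, because the members differ in spread and noise. The root mean square of the centred log2 CPM ranged from 0.36 for BATF to 2.42 for FOS, with 0.87 for BATF3. BATF3 also had only 31 to 52 counts a library with ATRA. Among the members themselves, the closest were FOSL2 and JUNB (0.34), FOSB and FOSL1 (0.35) and JUNB and JUND (0.36).

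Other bZIP proteins can pair with JUN or FOS or compete with them for DNA. Of 24 listed partners and relatives 22 were tested, and with both drugs 13 were higher, 6 were lower and 3 were not called, with a median log2 change of 0.39. Of all genes, 81.7% were called in this comparison, 41% higher and 40.7% lower. The largest falls were in ATF5, a stress response factor (225 ± 15.4 CPM in non-treated cells and 27.4 ± 2.60 with both), and JDP2, a repressor that pairs with JUN (43.4 ± 1.69 and 7.30 ± 0.862 CPM, log2 change -2.57 ± 0.09). The largest rises were in BATF2, with 0 to 3 counts in non-treated libraries, 232 to 299 with ATRA and 127 to 135 with both, and in BACH1, a repressor that pairs with small MAF proteins such as MAFF (45.3 ± 1.52 and 263 ± 8.13 CPM, log2 change 2.54 ± 0.05). ATRA alone gave 9 higher and 8 lower, and CDK4/6i alone gave 3 higher (BACH1, MAFG and NFE2) and 10 lower, where 32.1% of all genes were higher and 35.5% lower with ATRA, and 28.3% and 27.9% with CDK4/6i.

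Most of the other immediate early genes that were detected were higher with both drugs. Of 23 listed, 19 were tested, of which 15 were higher and 2 (CCN1 and NR4A1) lower with both drugs (median 2.48), 14 higher and 1 (SRF) lower with ATRA (median 1.25), and 10 higher and 4 (CCN1, IER2, IER5 and KLF10) lower with CDK4/6i (median 0.32). Over all genes the shares higher were 41%, 32.1% and 28.3% in the same order, and the shares lower 40.7%, 35.5% and 27.9%. EGR2, a zinc finger factor of myeloid differentiation, was at 0.476 ± 0.0483 CPM without treatment, 20.0 ± 2.35 with ATRA, 3.20 ± 0.389 with CDK4/6i and 248 ± 1.75 with both. NR4A3, an orphan nuclear receptor, had 0 to 2 counts in non-treated libraries and 384 to 579 with both drugs. No member of this list with a mean of at least 5 CPM fell with both drugs. The interaction was above 0 in 11 of the 19 and below 0 in 2 (KLF2 and NR4A2), with a median of 0.81, where 24.5% of all genes were above 0 and 27% below.

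Textbook AP-1 target genes were also counted. Of 28 listed, 19 were tested, of which 14 were higher and 3 (MT2A, PLAU and VEGFA) lower with both drugs, with a median log2 change of 4.96, or 4.08 where genes with at most 3 counts in every non-treated library were set to 3 counts a library. With ATRA 12 were higher and 6 lower, and with CDK4/6i 13 were higher and 2 (MT2A and VEGFA) lower, to be read beside the same shares of all genes. LIF, a cytokine, had 1 to 2 counts in non-treated libraries, 154 to 190 with ATRA, 0 to 3 with CDK4/6i and 1777 to 1859 with both. MT2A, a metallothionein, fell from 89.0 ± 8.68 to 16.1 ± 1.08 CPM with both drugs, and PLAU, the urokinase gene, fell from 21.1 ± 1.56 to 9.95 ± 1.71 CPM. Genes such as LIF passed the filter through the treated libraries, so the counts over these lists describe what was detected and are not a test of the lists.

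**Figure D4:**
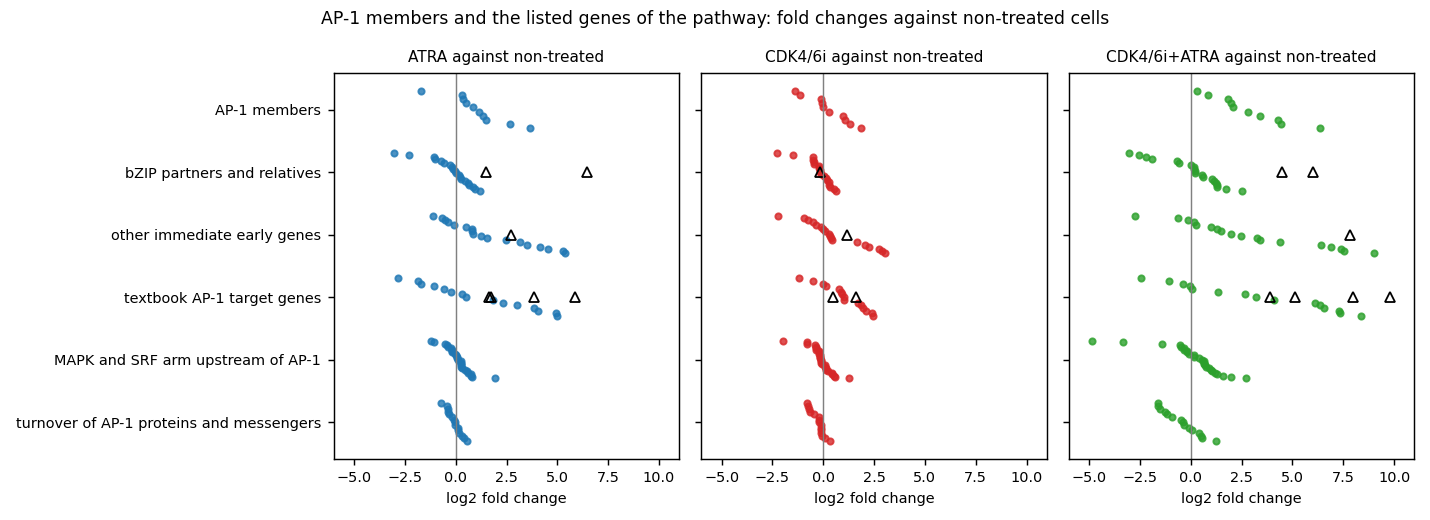
Log2 fold change against non-treated cells (horizontal axis) of the 10 AP-1 genes and of the tested genes of 5 lists (rows), with ATRA, CDK4/6i and both drugs (panels), 1 circle a gene, placed by rank within its row. Triangles are bounds for genes with at most 3 counts in every library of a group, set to 3 counts, and 4 genes are not drawn with CDK4/6i because no fold could be given. With both drugs 9 AP-1 genes lie at 0.85 or above and BATF3 at 0.31, and most immediate early and target genes lie to the right of 0 while the turnover list lies on both sides.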

How the data were processed

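RNA-Seq was analysed in 12 libraries of HL60 cells, 3 per group. The authors trimmed and aligned the reads to hg38 (Trimmomatic 0.33 and STAR 2.7.11a per the submitters' processing notes) and deposited raw counts per gene under the RefSeq annotation, as whole numbers without normalization. The table has gene lengths and exon positions in the layout of featureCounts, whereas the paper names RSEM, and the strand setting of the counting is not given in the sources used here. The library kit keeps strand.

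Genes with low counts were removed by filterByExpr (minimum count 10, over the 4 groups), and TMM factors were computed with edgeR 4.0.16 in R 4.3.3. The quasi-likelihood F test of 1 model of the 4 groups (8 residual degrees of freedom, common biological coefficient of variation 3.70%) gave 5 comparisons and the interaction, with Benjamini-Hochberg adjustment over all 13318 genes and a threshold of 0.05. SE was the log2 change divided by the square root of F. CPM per kilobase used the deposited gene length. Shares were compared with an exact two-sided permutation test in scipy 1.17.1. For genes at or under a floor of 3 counts in every library of a group, counts are given in place of folds. Depth limits low genes, and counts cover counting error only.

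The members and the 5 gene lists were chosen with earlier results of these data known. All members are named, and from each list the called genes that rose or fell most with both drugs (2 in each direction) among those with a mean of at least 5 CPM. A gene that the rule covers is not reported here. Any other gene was named after its values were seen. The alternatives tried were library size alone, size factors of DESeq2, no filter, at least 10 counts in every library, a block for the replicate number, a fit of the compared groups by themselves, DESeq2 1.42.0 as the test, shares without division by length, and leaving out each library, which for shares was chosen after seeing the data. Scripts were tested on simulated data. Libraries of a group differed by more than sampling noise (chi-square per degree of freedom 1.81 to 6.22), and none was treated as a duplicate of another.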

Additional observations from a re-analysis of the deposited data

Results flagged for a closer look

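Each of the 10 AP-1 genes had an effect of CDK4/6i that differed between cells with and without ATRA, as tested by the interaction in edgeR's quasi-likelihood fit. The difference on the log2 scale was 3.97 for JUN, 3.38 for BATF3, 2.09 for FOSL2, 1.63 for FOS, 1.47 for JUND, 1.40 for JUNB, 0.77 for MAFF, 0.49 for FOSL1, 0.48 for BATF and -0.74 for FOSB. In JUN and BATF3 the sign of the CDK4/6i effect turned, from -1.17 to 2.80 and from -1.38 to 2.00. In JUND a fall of -0.13 without ATRA stood beside a rise of 1.34 with it. In FOSB CDK4/6i raised the gene by 1.85 without ATRA and by 1.12 with it, and in FOSL1 by 1.29 and 1.78. The same libraries enter all 10 values, and 51.4% of all genes passed this test. With scaling by library totals alone 7 of the 10 passed, without FOSL1, MAFF and BATF, and FOSL1 also failed with DESeq2, without a filter and in 4 of the 12 fits that left out 1 library.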

How the results depend on the processing

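The number of members called stayed within 1.5 times its reported value under all 83 alternatives run. Leaving out 1 library at a time gave 9 to 10 members called for ATRA against non-treated cells, 7 to 8 for CDK4/6i, 9 to 10 for both drugs, 9 for both against CDK4/6i, 10 for both against ATRA and 9 to 10 for the interaction. Of 830 log2 changes of members under an alternative, 804 kept their direction and side of the threshold, 13 lost the call, 7 gained it and 6 changed sign. The changes of sign were in values that were not called. BATF with CDK4/6i was 0.001 with DESeq2's size factors, 0.0052 with library size alone, and -0.061 to 0.0507 when 1 library was left out, above 0 without non-treated replicate 2, CDK4/6i replicate 2 or CDK4/6i replicate 3. FOSB with both drugs against CDK4/6i was -0.16 with library size alone. The share of JUNB with both drugs against CDK4/6i and against ATRA turned to -2.06 and -1.63 percentage points where counts were not divided by length. BATF3 with both drugs against non-treated cells also became a call with DESeq2's size factors (0.33), at least 10 counts in every library (0.35) and only the groups compared (0.32), JUND with CDK4/6i lost its call with DESeq2 (-0.12), and the FOSL1 interaction lost it with DESeq2 (0.47) and without a filter (0.40). The causes were not tested.

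With the replicate block, the members called were 9, 8, 10, 9, 10 and 10 in the order above, and the only call it changed was BATF3 with both drugs (0.31, adjusted p = 0.0497 by edgeR). Deviations from the group means of same-numbered libraries correlated at -0.07 to 0.03, so no shift shared by these libraries was seen. Whether same-numbered libraries were handled together cannot be told from these values.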

Other observations

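The MAP kinase and serum response factor arm that activates AP-1 genes held genes that were called in each direction. Of 28 listed genes 27 were tested, of which 15 were higher and 9 lower with both drugs (median log2 change 0.56), 11 higher and 9 lower with ATRA (0.13), and 6 higher and 13 lower with CDK4/6i (-0.13). The shares of all genes that were higher and lower were 41% and 40.7%, 32.1% and 35.5%, and 28.3% and 27.9% in the same order. ELK3, a partner of serum response factor, rose from 14.7 ± 0.933 CPM (SD, n = 3) in non-treated cells to 96.3 ± 5.19 with both drugs, and RPS6KA1, a kinase downstream of ERK, from 265 ± 5.84 to 1054 ± 13.2. MAPK12, a p38 kinase, fell from 26.5 ± 1.32 to 2.62 ± 0.452 CPM and RPS6KA4, a nuclear kinase downstream of ERK and p38, from 60.7 ± 2.54 to 22.8 ± 2.45. MAPK3 rose by 0.64 on the log2 scale and SRF by 0.15.

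A list drawn up for the turnover of AP-1 proteins and messengers also holds cofactors of JUN proteins, such as NACA and MEN1. Of 17 listed genes 15 were tested, of which 9 were lower and 4 (COP1, FBXW7, ITCH and NACA) higher with both drugs (median -0.40), 9 were lower and 1 (NACA) higher with CDK4/6i (-0.18), and 6 were lower and 4 higher with ATRA (-0.06). Of all genes tested, 40.7%, 27.9% and 35.5% were lower in the same order, and 41%, 28.3% and 32.1% were higher. HNRNPD, which binds the AU-rich elements of short-lived messengers, fell from 973 ± 34.0 to 315 ± 5.48 CPM with both drugs, and USP28, a deubiquitinase that stabilizes JUN, from 47.3 ± 2.13 to 15.7 ± 1.41. ITCH, a ubiquitin ligase for JUN proteins, rose from 47.6 ± 0.693 to 113 ± 8.90, and NACA, a coactivator of JUN, from 642 ± 15.2 to 929 ± 56.1.

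FOS, JDP2 and BATF lie in that order on chromosome 14, with 240238 bases between the end of FOS and the start of BATF. With both drugs FOS rose 81.2-fold and BATF 1.81-fold, while JDP2 between them fell by 2.57 on the log2 scale.

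ATF3, a stress-induced bZIP factor named after its values were seen, showed a pattern like that of BATF3, but at low counts. It had 29 to 41 counts a library without treatment, 16 to 21 with ATRA, 3 to 13 with CDK4/6i and 21 to 35 with both. ATRA changed it by -1.04 on the log2 scale, CDK4/6i by -2.27 and the combination by 0.16 (not called, adjusted p = 0.626 by edgeR), and its interaction was 3.47 ± 0.50 (SE). EGR1, an immediate early gene named in the same way, rose by 4.56, 2.06 and 6.88 in the same order, with an interaction of 0.26 (not called, adjusted p = 0.0590), whereas that of FOS was 1.63.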
